A study of Mus musculus with 6 samples.

Results

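The IFIT, ISG15 and IFI27 genes are interferon-induced genes, and 9 of them were followed here in mouse bone marrow-derived macrophages, which are macrophages grown from marrow precursors. They were Ifit1, Ifit2, Ifit3, I830012O16Rik (the older symbol of Ifit3b), Isg15, Isg20, Ifi44, Ifi35 and Ifi27, and they were found by symbol among the 24054 genes of the deposited tables. The set was put together with the difference between treated and untreated cells already known, and Ifi27 was set against the other 8 for the same reason, so the values of that comparison describe these genes and carry no test of their own. Cells of wild-type C57BL/6 mice were grown for 7 days in medium conditioned by L929 cells. The 3 oxLDL samples then received oxidised low-density lipoprotein (oxLDL, a damaged form of a blood lipoprotein, taken up by macrophages into foam cells) at 50 µg/ml for 24 hours, and the 3 untreated samples were kept without it. The samples of each group carry the numbers 1, 2 and 3, and samples with the same number are called a pair here. The labels do not say whether the numbers stand for separate animals or cultures, and they do not explain the word mix in every sample title. The comparison asks how macrophage transcripts differ after oxLDL.

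Type I interferons act on the receptor chains IFNAR1 and IFNAR2, and the kinases JAK1 and TYK2 then activate STAT transcription factors. Together with IRF9 these bind the interferon-stimulated response element (ISRE) in front of interferon-stimulated genes. IFIT proteins bind viral RNA, ISG15 is a ubiquitin-like protein that is attached to other proteins, ISG20 is an RNA exonuclease, and IFI35 forms complexes with the protein NMI. IFI27 belongs to the ISG12 family of small hydrophobic proteins, which in human cells have been found at mitochondria.

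RefSeq promoter windows (build GRCm38.p6, 250 bases before to 50 bases after a gene's start) were at hand for 8 of the 9 genes, in 11 windows, and Ifi27 was the gene with none. The ISRE core was searched on both strands as GAAA, any pair of bases, then GAAA. It was present in windows of 4 of the 8 genes, and in 3.99% of all 27025 genes with a window. These 4 windows are shown because they are the sequences in which the searched element occurred. They are written 5′ to 3′ on the strand of the gene, and capitals mark the ISRE cores, overlapping ones joined.
Ifit1 (chr19:34640639-34640938, plus strand): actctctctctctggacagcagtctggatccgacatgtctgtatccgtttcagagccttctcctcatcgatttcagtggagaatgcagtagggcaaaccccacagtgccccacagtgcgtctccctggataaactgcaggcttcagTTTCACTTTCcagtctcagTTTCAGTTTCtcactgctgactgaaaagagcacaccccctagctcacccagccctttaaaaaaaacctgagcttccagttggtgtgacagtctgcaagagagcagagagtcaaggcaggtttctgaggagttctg
Ifit3 (chr19:34583279-34583578, plus strand): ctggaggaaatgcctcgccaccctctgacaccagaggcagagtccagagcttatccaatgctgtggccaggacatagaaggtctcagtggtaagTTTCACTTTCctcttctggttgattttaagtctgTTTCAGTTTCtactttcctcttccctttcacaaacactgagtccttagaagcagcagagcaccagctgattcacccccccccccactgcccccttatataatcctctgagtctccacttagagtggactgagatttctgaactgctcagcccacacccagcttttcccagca
I830012O16Rik (chr19:34607707-34608006, plus strand): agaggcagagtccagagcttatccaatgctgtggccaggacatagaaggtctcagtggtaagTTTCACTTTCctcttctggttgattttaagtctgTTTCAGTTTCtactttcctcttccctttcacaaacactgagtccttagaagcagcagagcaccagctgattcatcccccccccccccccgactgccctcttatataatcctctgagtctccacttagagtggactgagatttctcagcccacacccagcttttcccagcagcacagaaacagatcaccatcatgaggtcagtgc
Isg15 (chr4:156200769-156201068, minus strand): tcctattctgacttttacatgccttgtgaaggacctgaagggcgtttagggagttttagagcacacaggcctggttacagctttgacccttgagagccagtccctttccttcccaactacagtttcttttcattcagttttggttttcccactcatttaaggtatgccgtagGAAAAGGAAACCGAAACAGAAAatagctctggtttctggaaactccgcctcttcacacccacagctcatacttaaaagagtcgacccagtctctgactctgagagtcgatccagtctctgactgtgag
The Ifit1, Ifit3 and I830012O16Rik windows each held 2 separate cores, lying on the strand opposite to the gene, with the same letters in the same order. The cores began 104 and 85 bases before the start of Ifit1, 156 and 122 bases before that of Ifit3, and 188 and 154 bases before that of I830012O16Rik. In Isg15, 3 overlapping cores on the gene's own strand formed a single stretch that began 78 bases before the start. The palindromic STAT element TTC, any 3 bases, then GAA was found in windows of 3 genes (Ifit2, Isg20 and Ifi35), against 9.55% of all genes. An antioxidant response element core, TGAC, any 3 bases, then GCA, was found in 0 of the 8 genes, against 3.45% of all genes. These are matches of letters and do not show that a factor binds there.

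The 8 genes other than Ifi27 all had lower levels in each oxLDL sample than in any untreated sample, and Ifi27 had a higher level in each oxLDL sample. Among all 11400 genes tested, groups that did not overlap were lower with oxLDL in 10.6% and higher in 10.5%, and nothing is read from the difference because the genes were chosen on this contrast. Levels are counts relative to library size, scaled by TMM factors (CPM), and they are compared between samples of a gene and not between genes. In bulk RNA, fewer cells of a type and less RNA per cell cannot be told apart. The 9 genes together took 0.0112%, 0.00763% and 0.0491% of all counts in oxLDL samples 1, 2 and 3, and 0.176%, 0.228% and 0.205% in untreated samples 1, 2 and 3.

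In edgeR's quasi-likelihood test over all genes, 0 of the 9 genes passed a Benjamini-Hochberg adjusted p of 0.05 when group was the only term, and so did 0% of all genes. At an unadjusted p under 0.05 there were 8 of the 9 genes and 14.7% of all genes. DESeq2 called 8 of the 9 genes and 7.71% of the 11311 genes it gave an adjusted p without a block, and 9 of the 9 and 16.3% of all genes with one. With the sample number as a block, edgeR called 4 of the 9 and 5.89% of all genes. These 4 were Isg20, Ifi35 and I830012O16Rik, which fell (3.98% of all genes fell), and Ifi27, which rose (1.91% of all genes rose). The other 5 (Ifit1, Ifit2, Ifit3, Isg15 and Ifi44) did not pass in that fit. This split follows the threshold and not the size of the difference. All 5 had log2 fold changes larger in size than those of Isg20 and Ifi35. The words rose and fell refer to the blocked fit throughout. The calls depended on single pairs, since edgeR with the block called 0 of the 9 without pair 1, 0 without pair 2 and 9 without pair 3. Over all genes the same fits called 0, 0 and 3446, so this was not particular to the 9 genes.

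**Figure D1:**
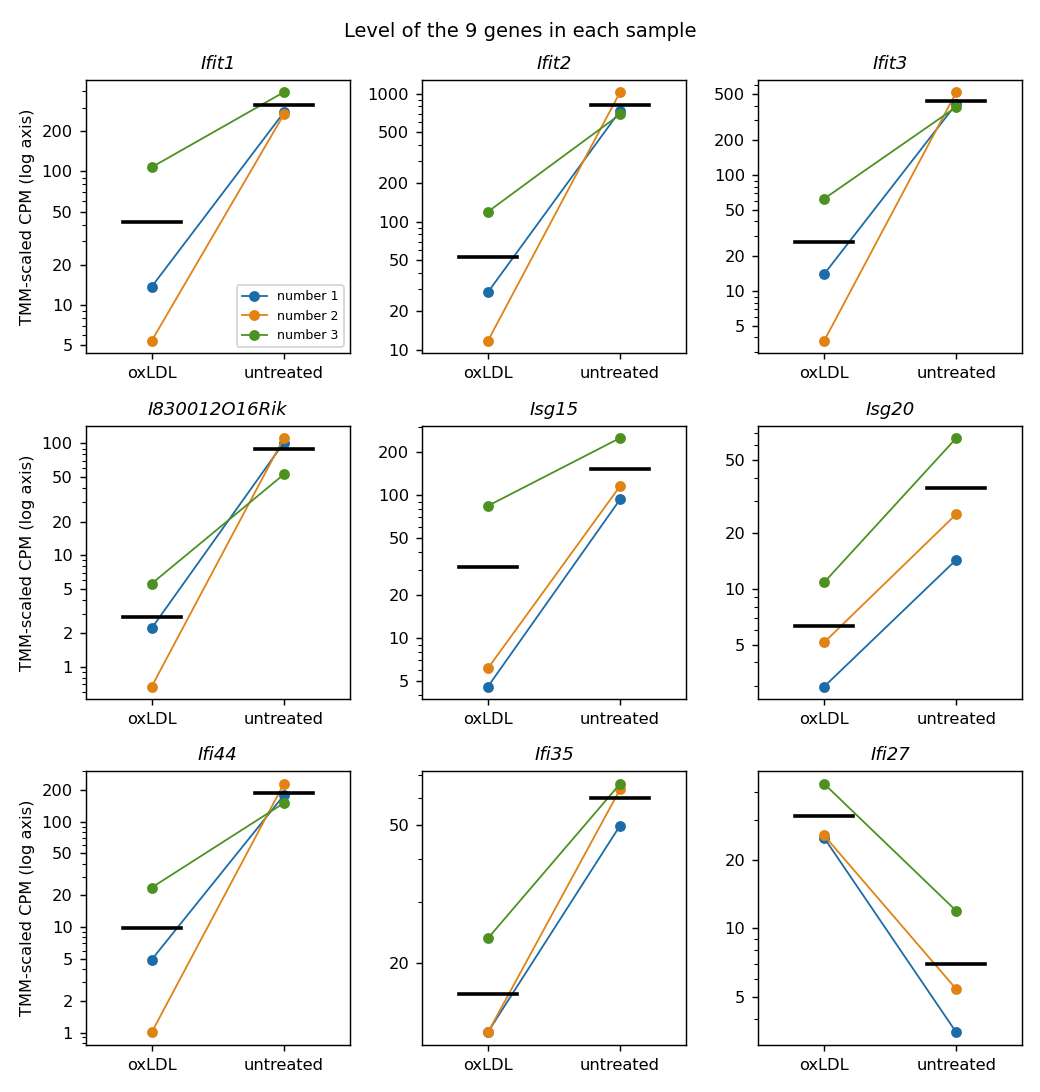
Level of each of the 9 genes in TMM-scaled CPM (log axes with a scale of their own) in the 3 oxLDL samples, on the left of each panel, and the 3 untreated samples, on the right. Lines join samples with the same number and black bars are group means; 8 panels climb toward the untreated side and the Ifi27 panel descends.

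The 4 IFIT genes, like the other lower genes, were below their untreated sample in each of the 3 pairs, and Ifi27 was above it. Over all genes tested, 27% were lower and 26.4% higher in all 3 pairs. Ifit1, whose product binds viral RNA with a foreign 5′ end, measured 13.7, 5.40 and 108 CPM in oxLDL samples 1, 2 and 3, against 276, 267 and 392 CPM in the untreated samples of the same numbers. The third oxLDL sample kept the most Ifit1, at 11.3 times the mean of the other oxLDL samples, while the untreated samples lay within a narrow band. The fitted log2 fold change, ± SE, was -2.89 ± 1.11 (no block) or -3.93 ± 0.85 (block). Ifit2, which in human cells has been tied to cell death, measured 28.2, 11.7 and 120 CPM with oxLDL, against 737, 1030.0 and 692 CPM untreated. Its log2 ratios were -4.70, -6.44 and -2.53 in pairs 1, 2 and 3, so the size of the difference varied between pairs but its sign did not. The fitted log2 fold change was -3.95 ± 0.92 (no block) or -4.56 ± 0.90 (block).

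Ifit3 and I830012O16Rik are close copies of each other on chromosome 19, where all 4 IFIT genes lie. Their longest GENCODE M21 transcripts were identical at 97.8% of 1700 aligned positions, whereas other pairs of the 4 IFIT genes reached 57.7% to 64.3% over shorter stretches. Of all stretches of 150 bases, the length of a read, 18.5% of the Ifit3 transcript and 16% of the I830012O16Rik transcript occurred in the other copy. The expected counts of both genes were not whole in all 6 samples, so reads were divided between them, and how they were divided bears on each gene's level. Ifit3 measured 14.0, 3.74 and 62.8 CPM with oxLDL, against 414, 521 and 388 CPM untreated. I830012O16Rik fell to 2.22, 0.667 and 5.57 CPM with oxLDL, against 102, 112 and 52.9 CPM untreated. Both copies showed the same order of samples within the oxLDL group, with sample 3 highest and sample 2 lowest. The fitted log2 fold change of Ifit3 was -4.04 ± 1.03 (no block) or -4.80 ± 1.01 (block), and that of I830012O16Rik was -4.98 ± 0.80 (no block) or -5.11 ± 0.82 (block). The lowest value of I830012O16Rik rested on 10 counts.

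Isg15 encodes the ubiquitin-like modifier and Isg20 the RNA exonuclease. Isg15 measured 4.57, 6.14 and 84.1 CPM with oxLDL, against 93.3, 116 and 251 CPM untreated. Its levels in pair 3 exceeded those of the same group in pairs 1 and 2, and oxLDL sample 3 came close to untreated sample 1. The fitted log2 fold change of Isg15 was -2.28 ± 1.21 (no block) or -3.35 ± 0.68 (block). Isg20 fell to 2.96, 5.14 and 10.8 CPM with oxLDL, against 14.4, 25.4 and 65.6 CPM untreated. Untreated levels of Isg20 had a coefficient of variation of 76.7% while its log2 ratios stayed close, at -2.23, -2.28 and -2.58 in pairs 1, 2 and 3. The fitted log2 fold change was -2.48 ± 0.73 (no block) or -2.40 ± 0.14 (block), the smallest SE of the 9 genes.

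Ifi44, an interferon-induced protein that limits some viruses in human cells, measured 4.91, 1.001 and 23.7 CPM with oxLDL, against 178, 229 and 150 CPM untreated. The pair ratios of Ifi44 were the farthest apart of the 9 genes, with log2 values of -5.15, -7.66 and -2.66 in pairs 1, 2 and 3. The fitted log2 fold change was -4.24 ± 1.10 (no block) or -4.95 ± 1.08 (block). Ifi35 fell to 12.6, 12.6 and 23.6 CPM with oxLDL, against 49.9, 63.5 and 65.9 CPM untreated. It had the smallest difference of the 8 lower genes, at a fitted log2 fold change of -1.88 ± 0.30 (no block) or -1.93 ± 0.20 (block). Nmi, the partner of the IFI35 protein, fell to 8.47, 7.80 and 13.2 CPM with oxLDL, against 26.3, 25.5 and 22.4 CPM untreated (log2 fold change -1.37 ± 0.23, edgeR adjusted p = 0.0462 with the block and 0.1003 without it).

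Ifi27 moved the other way. It rose to 25.1, 25.7 and 43.4 CPM in oxLDL samples 1, 2 and 3, against 3.48, 5.39 and 11.9 CPM in the untreated samples, which rest on 51, 75 and 175 counts. Every oxLDL sample exceeded every untreated sample, and sample 3 was the highest of both groups. The log2 ratios were 2.80, 2.22 and 1.85 in pairs 1, 2 and 3, and the fitted log2 fold change was 2.18 ± 0.51 (no block) or 2.29 ± 0.22 (block). Set against the median of the other 8 genes, Ifi27 differed by 5.59 on the log2 scale without the block, and by 7.31, 8.24 and 4.40 in pairs 1, 2 and 3.

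Its neighbour and relative Ifi27l2a, another gene of the ISG12 family, went with the 8 lower genes. In RefSeq the interval of Ifi27 lies within that of Ifi27l2a, and in GENCODE M21 (GRCm38.p6) Ifi27 lies on the plus strand (chr12:103434211-103440239) and Ifi27l2a beside it, without overlap, on the minus strand (chr12:103442167-103443680). Ifi27l2a fell to 43.3, 15.5 and 30.9 CPM with oxLDL, against 552, 417 and 137 CPM untreated. Its log2 fold change was -3.53 ± 0.57 (edgeR adjusted p = 0.0449 with the block and 0.103 without it). Whether counting used strand is not given in the sources used here. Expected counts of Ifi27 and Ifi27l2a were whole in all 6 samples, and their GENCODE transcripts shared 0 stretches of read length on either strand. Ifi27l2b, a further relative on the same chromosome, had a count of 0 in all 6 samples, which allows up to 0.200 to 0.217 CPM per oxLDL sample and 0.205 to 0.216 CPM per untreated sample (3 counts, counting error only).

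**Figure D2:**
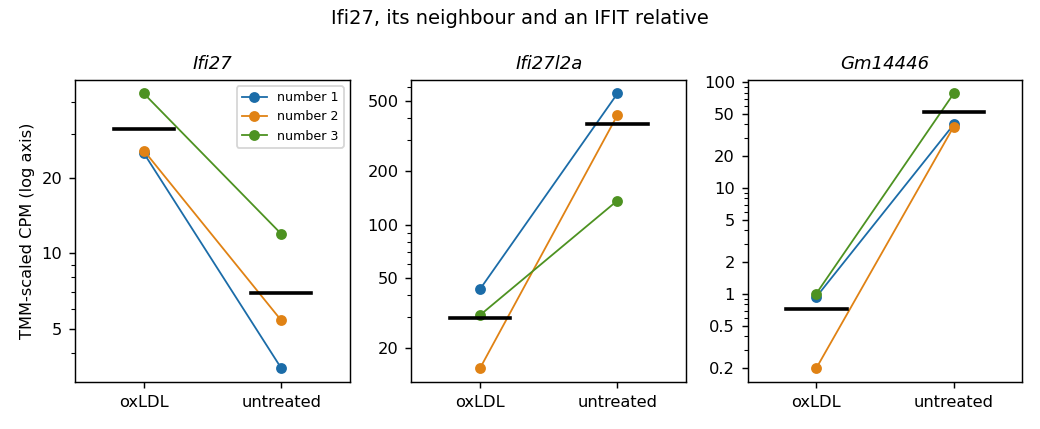
Level of Ifi27, its neighbour Ifi27l2a and Gm14446, a relative of Ifit1, in TMM-scaled CPM (log axes with a scale of their own), with oxLDL samples on the left and untreated samples on the right of each panel. Lines join samples of a number and black bars are group means; Ifi27 averaged 31.4 CPM with oxLDL and 6.94 CPM untreated, whereas Ifi27l2a averaged 29.9 CPM with oxLDL and 368 CPM untreated.

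The genes differed in how evenly the pairs behaved. The median log2 ratio of the 8 genes was -4.51, -6.01 and -2.55 in pairs 1, 2 and 3, beside medians of 0.01, 0.01 and -0.01 over all tested genes. Pair 2 had the largest ratio in 6 of the 8 genes, and pair 3 the smallest in 7 of the 8, the exception being Isg20. In the oxLDL group sample 3 was the highest in all 8, as it was in Ifi27 and in 4784 of the 11400 genes tested. Sample 3 stood at 15.7 times the mean of the other oxLDL samples for Isg15, 8.03 times for Ifi44, 7.06 times for Ifit3, 2.68 times for Isg20 and 1.87 times for Ifi35. Among untreated samples, sample 3 was the highest for Ifit1, Isg15, Isg20 and Ifi35 and the lowest for Ifit2, Ifit3, I830012O16Rik and Ifi44. The spread within the oxLDL group therefore held a common order of sample 3 above the others, which the untreated group did not share. A difference of the response among pairs could not be tested, since each pair holds 1 sample per group.

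**Figure D3:**
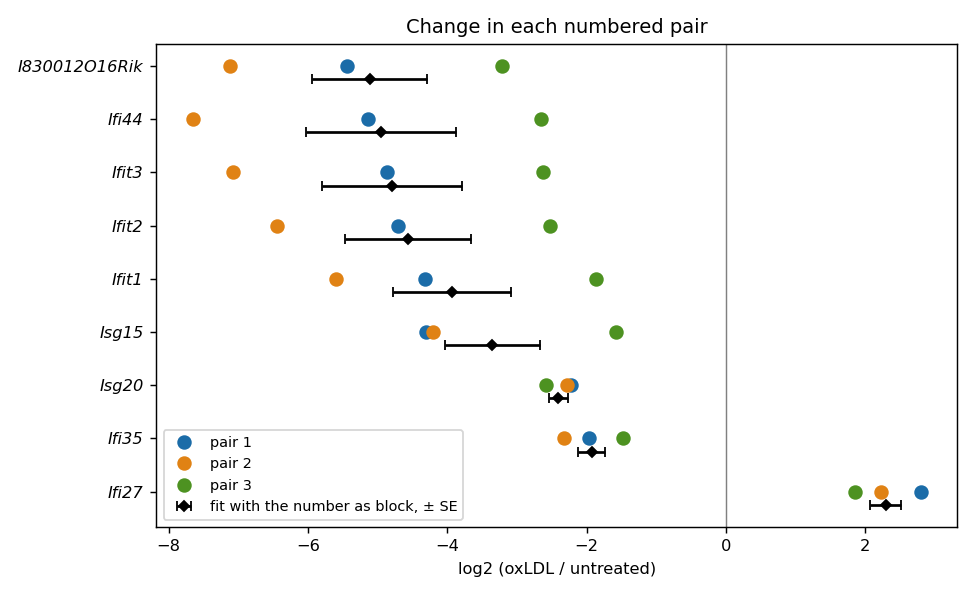
The log2 ratio of oxLDL over untreated in each numbered pair (coloured points) for the 9 genes, with the log2 fold change of the blocked fit and its SE (black diamonds). Pairs of Isg20, Ifi35 and Ifi27 lie close together, whereas those of Ifi44 run from -7.66 in pair 2 to -2.66 in pair 3.

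Interferon transcripts themselves were at or near 0 in both groups. Of 15 ligand genes, 13 had a count of 0 in all 6 samples, and a count of 0 allows the levels given above for Ifi27l2b. Ifnb1, the early interferon of macrophages, had 0 counts in each oxLDL sample and 0, 1 and 4 counts in untreated samples 1, 2 and 3. The ligand genes did not pass the count filter and were not tested.

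Genes of the pathway outside the 9 were taken from 6 lists, drawn up with earlier results of these data known. Of their 70 tested genes 30 fell and 0 rose in edgeR's fit with the block, beside the 3.98% of all genes that fell. In that fit 69 of the 70 had a negative log2 fold change, where the median over all tested genes was 0.01. Without the block 0 of the 70 passed in edgeR, as did 0% of all genes. An unadjusted edgeR p under 0.05 was reached by 46, beside 14.7% of all genes, and DESeq2 called 43, beside 7.71%. Leaving out a pair gave blocked counts of 0 (pair 1 out), 0 (pair 2 out) and 60 (pair 3 out). Over all genes these counts were 0, 0 and 3446.

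Receptors and signalling genes differed less than the 9 genes. Of 11 tested, 1 fell and 0 rose, with a median log2 fold change of -0.45 with the block, beside 0.01 over all genes. The gene that fell was Stat2, at 73.5, 50.5 and 133 CPM with oxLDL, against 379, 525 and 394 CPM untreated (log2 fold change -2.43 ± 0.39, edgeR adjusted p = 0.0442 with the block and 0.0952 without it). The receptor chain Ifnar1 measured 156, 145 and 181 CPM with oxLDL, against 191, 202 and 270.5 CPM untreated (log2 fold change -0.45 ± 0.13), and the kinase Jak1 stood at -0.07 ± 0.14. Neither passed.

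Of 7 tested interferon regulatory factors 1 fell, Irf5 (-1.09 ± 0.16), whose groups overlapped, and 0 rose. Irf7, which drives interferon production and is itself interferon-induced, measured 35.5, 14.1 and 311 CPM with oxLDL, against 477, 608 and 1104 CPM untreated. As with Isg15, sample 3 was the highest of each group. Irf7 missed the threshold at -3.66 ± 0.80 (edgeR, blocked, adjusted p = 0.0698). Irf3, the factor that is present before infection, stood at -0.15 ± 0.12, short of the threshold.

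The enzymes that attach ISG15 to proteins or release it were mostly lower. Of 5 tested, 2 fell and 0 rose. Uba7, the activating enzyme of ISG15, fell to 47.3, 40.8 and 51.5 CPM with oxLDL, against 172, 205 and 99.9 CPM untreated (log2 fold change -1.72 ± 0.29). The protease Usp18, which removes ISG15, fell to 12.3, 13.3 and 51.7 CPM with oxLDL, against 103, 96.1 and 193 CPM untreated (-2.60 ± 0.27). The conjugating enzyme Ube2l6 (-1.65 ± 0.49) and the ligase Herc6 (-2.08 ± 0.49) did not pass, and Trim25, a ligase for ubiquitin, measured 441, 469 and 519 CPM with oxLDL, against 408, 505 and 522 CPM untreated.

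Of 7 tested relatives and partners of the 9 genes, 4 fell (Nmi, Ifi27l2a, Gm14446 and 2010002M12Rik) and 0 rose. Gm14446 and 2010002M12Rik, older symbols of the Ifit1 relatives Ifit1bl1 and Ifit1bl2, fell with log2 fold changes of -6.18 ± 0.36 and -3.07 ± 0.51. Gm14446 measured 0.941, 0.200 and 1.01 CPM with oxLDL, against 40.0, 38.2 and 78.4 CPM untreated. Its log2 ratios were -5.22, -6.82 and -6.09 in pairs 1, 2 and 3, so pair 3 was not the smallest, as it was in the IFIT members. The oxLDL values of Gm14446 rest on only 14, 3 and 14 counts, which limits how exactly its ratios are known. Rounded counts of 2010002M12Rik were only 3, 1 and 5 with oxLDL, against 18, 23 and 36 untreated, and its expected counts were not whole in 5 samples. Of all 150-base stretches of the Ifit1 transcript, 1.24% occurred in Ifit1bl2. The exonuclease relatives of Isg20 had log2 fold changes near 0: Isg20l2 had -0.13 ± 0.10, Aen had -0.10 ± 0.13 and Rexo4 had -0.05 ± 0.12, and none of these 3 passed.

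The list of other interferon-stimulated genes had 40 tested members, of which 22 fell and 0 rose, with a median log2 fold change of -2.51 with the block. Its lowest values belonged to the GTPase Iigp1 (-5.10 ± 0.85), the antiviral GTPase Mx1 (-4.67 ± 0.40) and the nucleotide kinase Cmpk2 (-4.07 ± 0.60). Its highest were those of Daxx (-1.197 ± 0.18), the oligoadenylate synthetase Oas1a (-1.58 ± 0.20) and the RNA-activated kinase Eif2ak2 (-1.64 ± 0.28). These 6 genes fell. The 9 genes' own blocked values ran from -5.11 for I830012O16Rik to -1.93 for Ifi35 among the 8 lower ones.

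**Figure D4:**
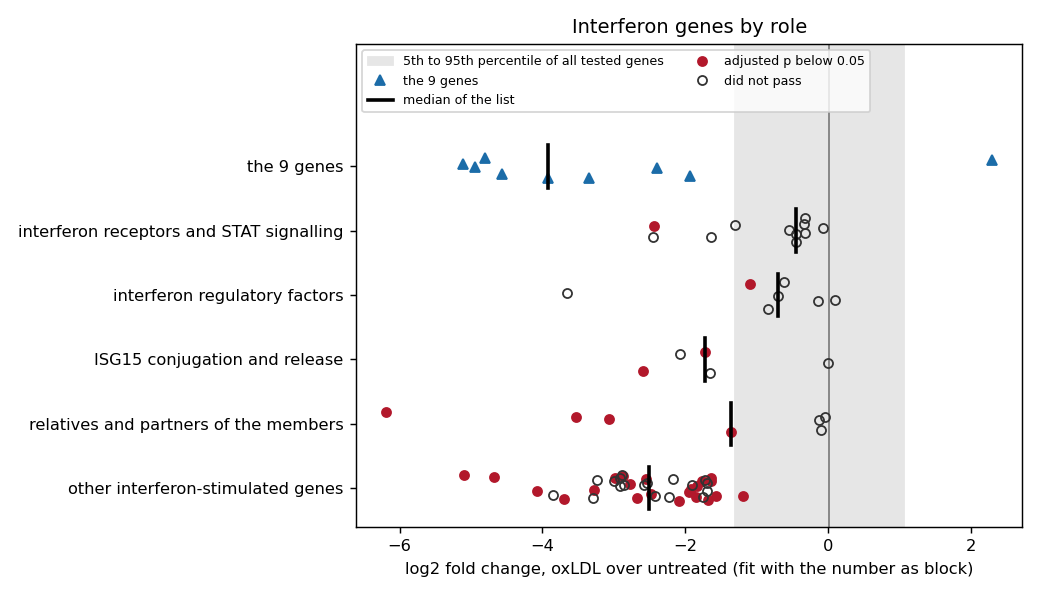
Log2 fold change of oxLDL over untreated from the blocked fit for the 9 genes (triangles) and the tested genes of 5 pathway lists (filled circles at an adjusted p below 0.05, open circles otherwise), with a black bar at each list's median. The grey band holds the middle of all tested genes, from the 5th to the 95th percentile, and Ifi27, at 2.29, is the point right of it.

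The 8 lower genes followed each other closely across the 6 samples, with Pearson's r of log2 CPM between 0.786 and 0.9997 between any pair of genes. With Ifi27 their r ran from -0.84 to -0.49. Both ranges are descriptions in which the group difference, used to choose the genes, takes part. Among 8625 other genes (mean log2 CPM 3 or more), those with the profile most like the mean of the 8 included Cmpk2, Zfp513, Pydc4 and Mnda. Cmpk2, the closest, had r = 0.999. The 5 most like Ifi27 were Mnt, which encodes a partner of the MAX protein, the peroxisomal transporter Abcd3, the lysosomal carboxypeptidase Ctsa, Phtf1 and Zfyve26. Mnt, the closest, had r = 0.998 and measured 104, 101 and 113 CPM with oxLDL, against 71.1, 75.1 and 88.3 CPM untreated. None of these 5 is on the pathway lists, and the profile of Ifi27 was far larger in size, since the log2 ratios of Mnt were 0.54, 0.43 and 0.35 in pairs 1, 2 and 3.

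Totals ran from 13546572 to 14433169 expected counts in oxLDL samples and from 14447811 to 15559310 in untreated samples. Macrophage markers were present, and all 10 in the table passed the count filter, with summed levels of 9219 to 16191 CPM with oxLDL and 13117 to 36163 CPM untreated. Of these 10, 3 fell (Fcgr1, Spi1 and Aif1) and 0 rose, beside 3.98% and 1.91% of all genes. These 3 did not pass in edgeR without the block, where 0% of all genes passed. Emr1 measured 1351, 451 and 2497 CPM with oxLDL, against 9145, 6565 and 3086 CPM untreated. Itgam measured 566, 297 and 530 CPM with oxLDL, against 3163, 2086 and 1126 CPM untreated. Both missed the threshold, though the groups of each did not overlap. Cd68 alone lay the other way, without passing, at 1612, 1642 and 1327 CPM with oxLDL, against 739, 1095 and 1194 CPM untreated. The neutrophil markers summed to 1.33 to 5.51 CPM with oxLDL and 7.504 to 36.8 CPM untreated. The 4 that passed the count filter (S100a8, S100a9, Ngp and Ltf) all missed the threshold. Of these only S100a9 had groups that did not overlap. Ngp was lower with oxLDL in pairs 1 and 2 and higher in pair 3 (log2 ratio 1.08). Markers of plasmacytoid dendritic cells, a cell type that makes interferon, summed to 28.9 to 67.8 CPM with oxLDL and 10.3 to 43.0 CPM untreated, most of it from Cox6a2 and Runx2, with Siglech at 0.818 CPM or less and Klk1 at 0. The B cell list summed to 1.74 to 9.54 CPM with oxLDL and 3.48 to 38.0 CPM untreated, most of it from Cd79b, with Pax5 at 0. Cd79b fell (log2 fold change -1.83, edgeR adjusted p = 0.0362 with the block and 0.419 without it) and was lower in each of the 3 pairs. Conventional dendritic cell markers summed to 3.16 to 15.3 CPM with oxLDL and 4.10 to 8.66 CPM untreated. The lists for T and NK cells, erythroid cells, mast cells and fibroblasts each summed to 1.201 CPM or less in every sample. The part of other cells in the differences was not tested.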

How the data were processed

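Bulk RNA was measured in 3 oxLDL and 3 untreated samples, grouped and numbered by their titles. The authors deposited expected counts of 24054 genes, and the submitters' processing notes list Bowtie2 2.1.0, RSEM 1.2.15 and edgeR. These notes name the human build hg19 although the symbols are mouse, so no coordinates are taken from the files. Expected counts were rounded. The second deposited table holds a signal, CPM with TMM scaling per the file's name. From it, 100% of values came out as whole reads (tolerance 0.005), and edgeR on them called 0 genes without and 672 with the block. Levels here are CPM from own TMM factors, and the median ratio of the deposited values to these was 0.991 to 1.01 across samples.

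Genes passed filterByExpr (minimum count 10, minimum total 15), leaving 11400, and all 9 members passed. The main test was edgeR 4.0.16 (quasi-likelihood, robust; R 4.3.3) with group alone, adjusted over all genes. The SE given with a log2 fold change is its size divided by the square root of the test's F statistic. It is therefore derived from the test and not reported by the fit itself. Log2 ratios of pairs used a prior count of 2. The p-values reflect the spread of these samples alone, which may be technical. Same-numbered samples deviated together from their group means (r = 0.66, 0.45 and 0.70 across genes, limit 0.1), so the numbers were taken as pairs. However, oxLDL sample 1 with untreated sample 2 (0.625) and oxLDL sample 2 with untreated sample 1 (0.204) also exceeded the limit. The check therefore cannot tell the pairing of numbers 1 and 2 from the swapped one. For numbers 1 and 2 the pairing rests on the titles alone, and for number 3 on the titles and this check. Alternatives were DESeq2 1.42.0, the block, RLE scaling, no count filter, left-out samples and the deposited table. The fits were tested on simulated data. Named genes were the 9 members, the genes of the role lists, the 3 lowest and 3 highest other interferon-stimulated genes and the 5 most alike profiles. Members and lists were chosen with earlier results of these data known. Transcripts are from GENCODE M21 and promoters from RefSeq (GRCm38.p6), and identity was computed with Biopython 1.88. Some genes of the named lists are not reported here.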

Additional observations from a re-analysis of the deposited data

How the results depend on the processing

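The count of genes past the threshold depended on how the pairs were treated. It was 0 of 11400 in edgeR with no block, 672 with the replicate block, 872 in DESeq2, 1853 in DESeq2 with the block, 8 with no filter on low counts and 672 on the recovered reads with the block. For the 9 genes it was 0 without the block, 4 with it, 8 in DESeq2, 9 in DESeq2 with the block and 4 on the recovered reads with the block. For the pathway lists it was 0, 30 with the block, 43 in DESeq2, 57 in DESeq2 with the block, 3 with no filter and 30 on the recovered reads with the block. The recovered reads were added after seeing the data, and the block changed no call other than those counted here. RLE scaling left all of these at 0. Leaving out a sample (no block) or a numbered pair (block) gave 0 to 3446 genes, 0 to 9 of the 9 and 0 to 60 pathway genes. Without the block the higher counts came without untreated sample 3 (737 genes, 3 of the 9, 26 pathway genes) or oxLDL sample 3 (31, 1 and 11), and the cause was not tested. The difference between Ifi27 and the median of the other 8 was 5.59 in log2 units and 5.21 to 7.77 with samples or pairs left out, the highest without pair 3. All 9 genes kept their direction under every alternative run. Depth limits the lowest oxLDL values, such as the 10 counts of I830012O16Rik and 15 of Ifi44 in oxLDL sample 2.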

Other observations

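Groups overlapped in 8997 of the 11400 genes tested. Among the 40 other interferon-stimulated genes, 6 had groups that overlapped, Rsad2, Gbp2, Gbp3, Gbp5, Cxcl10 and Lgals3bp. They were singled out after their values were seen. In each of them the overlap came from oxLDL sample 3. Rsad2, the antiviral enzyme viperin, measured 31.9, 29.0 and 830.1 CPM with oxLDL, against 312, 533 and 1863 CPM untreated. Cxcl10, an interferon-induced chemokine, measured 0.739, 0.0667 and 57.7 CPM with oxLDL, against 12.3, 20.9 and 149 CPM untreated. Both were lower with oxLDL in every pair and highest of each group in sample 3, as Isg15 was. Irf1 had a ratio above 1 in pair 3, where its log2 ratio was 0.26, against -0.98 in pair 1 and -1.81 in pair 2.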
